A study of Arabidopsis thaliana with 28 samples.

Results

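The loss of DDM1 was compared between 2 accessions of Arabidopsis thaliana, C24 and Col. For each gene the difference between ddm1-C24 and WT-C24 was set against the difference between ddm1-Col and WT-Col, and the difference of these differences is called the interaction. It was computed for the 22035 of 28437 genes that reached at least 1 RPM (reads of a gene scaled to one common library total) in at least 3 of the 12 parental libraries. The remaining 6402 genes were not tested. A gene was called higher or lower in the interaction when limma gave a Benjamini-Hochberg adjusted p under 0.05 over all tested genes. Higher means that the ddm1 effect was more positive in C24 than in Col.

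DDM1 (DECREASED DNA METHYLATION 1) is a chromatin remodeler of the SWI2/SNF2 family that lets DNA methyltransferases reach nucleosomal DNA, above all the heterochromatin around centromeres. Its loss lowers DNA methylation and releases transposable elements from silencing, and the changes that accumulate are inherited over generations. Accessions differ in which transposable elements and silent gene copies they carry, and in the strength of their salicylic acid (SA) defence.

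RNA was sequenced from whole seedlings 2 weeks old, grown on plates under long days without further treatment. The parental mutants were ddm1 in the C24 and Col backgrounds (ddm1-C24, ddm1-Col), set against wild-type seedlings of the same accession (WT-C24, WT-Col), with 3 replicate libraries of each. The 12 libraries of the reciprocal hybrids (ddm1-ColxC24, ddm1-C24xCol, WT-ColxC24 and WT-C24xCol, mother first, 3 of each) were not used for the interaction and were read afterwards as a separate measurement. The labels name no ddm1 allele and the study used several in each accession, so the accession, the allele and the number of generations without DDM1 cannot be told apart. Triplicates of each genotype were raised on plates, and no source says which libraries came from separate plates or plantings, so p-values measure the spread between these libraries, which may be technical.

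The transcript of the mutated gene differed between the mutants. DDM1 (AT5G66750) had 6.7, 14.3 and 13.2 RPM in ddm1-C24, against 6.0, 7.0 and 12.4 RPM in WT-C24. It had 2.6, 1.7 and 2.6 RPM in ddm1-Col, against 6.3, 9.5 and 12.6 RPM in WT-Col. The Col groups did not overlap and the C24 groups did, with ddm1-C24 above WT-C24 in all 3 same-numbered pairs. The effect on the log2(RPM + 0.5) scale, used for all differences below, was 0.40 in C24 (adjusted p = 0.26) and -1.80 in Col (adjusted p = 0.000354), and the interaction was 2.2 ± 0.35 (SE, adjusted p = 0.00223). The transcript therefore gave no check of the libraries labelled ddm1-C24. Of 1812 tested pseudogenes, the class that holds most transposable element genes, 1372 rose in ddm1-C24 and 1469 rose in ddm1-Col, whereas 16.8% of all tested genes rose in C24 and 8.51% rose in Col (27.7% and 11.5% were called in either direction).

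Library sums lay between 999819.3 and 1000138.8 RPM, values came in steps of 0.1 RPM and the read depth is not known here, so no counting interval can be given. ddm1-C24 replicates 2 and 3 differed from each other with an SD of 0.129 on the log2 scale, whereas the other pairs of one genotype had SDs between 0.458 and 0.850. The depth at which sampling noise alone would give the observed differences was then solved for each pair, over genes of low level. It came to 15.47 M reads for this pair and to 0.828 to 2.843 M reads for the others. This ranks the pairs by closeness, and whether sampling noise was the only source was not tested. Because of this closeness the pair was also averaged and counted as 1 sample, called averaging below. Same-numbered pairs in C24 are thus not 3 independent pairs, for DDM1 above or for any gene below. Leaf markers summed to 26910 to 48190 RPM in all 12 libraries. Root markers summed to 144.2 to 173.8 RPM in ddm1-C24, against 176.2 to 227.8 RPM in WT-C24, without overlap. In Col the groups overlapped, with 129.7 to 175.9 RPM in ddm1-Col, against 125.6 to 159.2 RPM in WT-Col. Flower markers summed to 7.5 to 8.4 RPM in WT-C24 and 6.0 to 8.7 RPM in WT-Col. Every ddm1 library lay above these flower values, reaching 12.9 RPM in ddm1-C24 and 15.8 RPM in ddm1-Col. The 15 seed storage and maturation markers summed to 153.5 to 441.4 RPM in ddm1-C24, against 605.9 to 1993 RPM in WT-C24, and to 3.4 to 56.3 RPM in ddm1-Col, against 10.5 to 19.2 RPM in WT-Col. In a whole seedling fewer cells of a type and less RNA per cell cannot be told apart.

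The ddm1 effect differed between the accessions for 2749 genes, which is 12.5% of those tested (6171 passed an unadjusted p under 0.05). Of these, 1587 genes (7.2%) were higher in the interaction and 1162 (5.27%) were lower. These shares over all tested genes are to be read beside the counts of every gene list below. With ddm1-C24 replicates 2 and 3 averaged, 1207 (5.48%) were higher and 1044 (4.74%) lower, among them 1138 and 962 of the same genes. Without the replicate number as a block, 492 (2.23%) were higher and 610 (2.77%) lower. The count of higher genes was 928 without WT-Col replicate 1, 949 without WT-Col replicate 2, 967 without ddm1-Col replicate 1, 894 without ddm1-Col replicate 2 and 2442 without ddm1-C24 replicate 3. The median interaction over all genes was 0.12, and rescaling the libraries by median ratios moved it to 0.001, with 1289 genes then higher and 1373 lower. Higher genes thus made up 57.7% of the calls as deposited and 48.4% after rescaling. The gene just inside the threshold was ERS1 (0.40, adjusted p = 0.04998) and the one just outside was AT2G38710 (0.44, adjusted p = 0.0502).

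**Figure D1:**
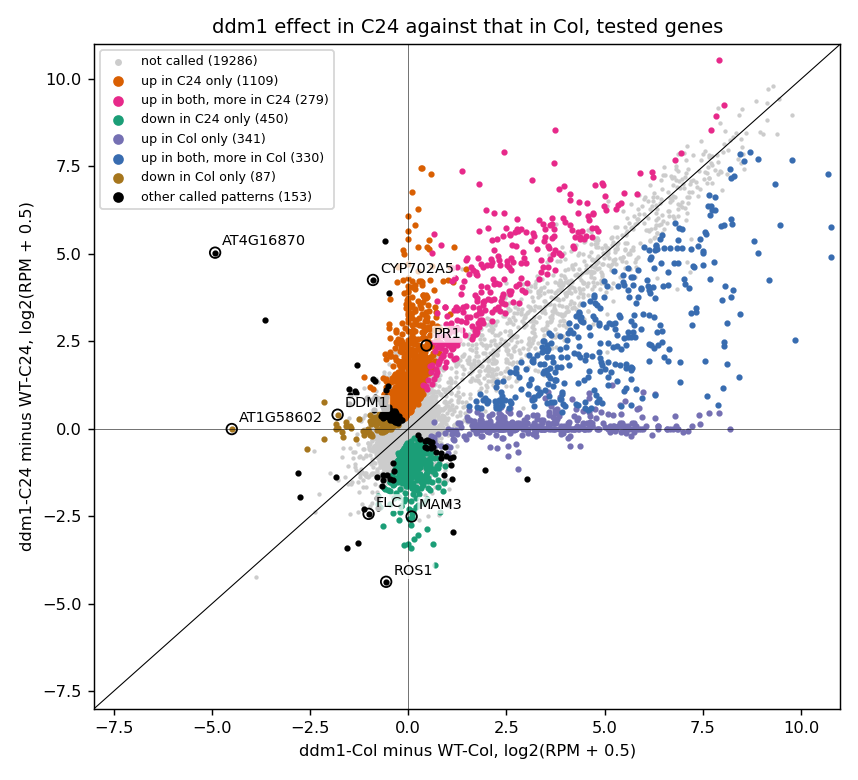
The ddm1 effect in C24 (vertical axis) against that in Col (horizontal axis), both as differences of log2(RPM + 0.5), for the 22035 tested genes, with genes not called in the interaction in grey and called genes coloured by pattern. Called genes form an orange column above 0 on the Col axis (1109 genes up in C24 only) and a purple row at 0 on the C24 axis (341 genes up in Col only), and the diagonal marks equal effects.

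The called genes were sorted by which of the ddm1 effects was itself called, where a missing call does not show that an effect is absent. The effect in C24 was called up for 16.8% of all tested genes and down for 10.9%, and the effect in Col up for 8.51% and down for 3.0%. In C24 3701 genes thus rose and 2398 fell, which became 2003 and 404 without the replicate block, and the 662 genes that fell in Col became 85. The largest pattern was a rise in C24 only, with 1109 genes, of which 969 were protein-coding and 135 pseudogenes. A fall in C24 only held 450 genes, of which 442 were protein-coding. Genes that rose in Col only numbered 341 and were mostly pseudogenes (244), as were the genes that rose in both accessions, whether more in C24 (232 of 279) or more in Col (305 of 330). A fall in Col only held 87 genes. Without the replicate block 283 genes rose in C24 only and 50 fell in C24 only. The 1109 genes became 667, 689, 669, 625 and 1790 without WT-Col replicate 1, WT-Col replicate 2, ddm1-Col replicate 1, ddm1-Col replicate 2 and ddm1-C24 replicate 3, taken in this order. The 450 genes became 222, 229, 285, 216 and 200 without WT-Col replicate 1, WT-Col replicate 2, WT-C24 replicate 2, ddm1-Col replicate 1 and ddm1-Col replicate 2. The 87 genes became 35, 37, 52, 57, 37, 36 and 132 without WT-Col replicates 1, 2 and 3, WT-C24 replicate 3, ddm1-Col replicates 1 and 2 and ddm1-C24 replicate 3. Pseudogenes made up 8.22% of all tested genes. Protein-coding genes were called higher more often than lower (1202 and 595 of 20006, 6.01% and 2.97%), whereas 20.6% of the pseudogenes were higher and 30.7% lower (373 and 556). The counts without the replicate block were 180 and 131 for protein-coding genes and 305 and 473 for pseudogenes. These counts are on RPM as deposited, where the median interaction was 0.12 for protein-coding genes and -0.17 for pseudogenes. Rescaling by median ratios gave 1289 higher and 1373 lower genes over all classes, and the classes were not counted there. It kept the call of 889 of the 1109 genes up in C24 only and 432 of the 450 down in C24 only. The excess of higher protein-coding genes thus may depend on the scaling.

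Among genes of SA synthesis and response, 9 of 16 and 16 of 18 rose in C24, beside 16.8% of all tested genes. In Col 2 and 3 rose, beside 8.51%. These counts became 9 and 12 in C24 and 0 and 0 in Col when the replicate block was left out. The SA lists, like the lists below, were chosen with earlier results of these data known, so their counts are descriptions. A single member fell, the NPR1-binding protein gene NIMIN-3, which did so in C24 (-0.50, adjusted p = 0.0401) and in Col (-0.58, adjusted p = 0.0415) with the block. SA is the hormone of defence against biotrophic pathogens, made in seedlings chiefly through isochorismate. Of 16 genes for SA synthesis and its activators, 7 were higher and 0 lower (CBP60g, EDS1, EDS5, PAD4, PBS3, ICS1 and SARD1), with 5 higher when replicates 2 and 3 were averaged and 2 without the replicate block. The median effect over the 16 was 0.85 in C24 and 0.21 in Col, beside 0.03 and -0.10 over all tested genes. CBP60g, a calmodulin-binding activator of ICS1, had 115.2, 104.7 and 105.1 RPM in ddm1-C24, against 35.7, 28.8 and 39.6 RPM in WT-C24, and 20.8, 20 and 26.8 RPM in ddm1-Col, against 15.3, 13.9 and 15.6 RPM in WT-Col. Neither pair of groups overlapped, and the effect was larger in C24 by 1.07 ± 0.15 (SE, adjusted p = 0.00104). EDS1 and PAD4, lipase-like partners that act upstream of SA, were higher by 0.95 ± 0.18 (adjusted p = 0.00612) and 1.14 ± 0.22 (adjusted p = 0.00669). EDS5, which exports the SA precursor from plastids, was higher by 1.45 ± 0.27 (adjusted p = 0.0062). Without the replicate block the adjusted p was 0.02 for CBP60g and 0.0401 for PAD4, whereas EDS1 (0.164) and EDS5 (0.432) were no longer called.

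Of 18 genes that respond to SA or carry its signal, 10 were higher and 0 lower. All 18 had a positive interaction (0.08 to 1.92), where the median over all tested genes was itself 0.12. The median effect of the 18 genes was 1.37 in C24 and 0.44 in Col. The count of higher genes was 9 after rescaling, 7 with replicates 2 and 3 averaged and 0 without the replicate block. It was 5 without WT-Col replicate 2 and 6 without WT-C24 replicate 2, ddm1-Col replicate 1, ddm1-Col replicate 2 or ddm1-C24 replicate 1, and reached 14 at most. PR1, the usual marker of SA signalling, had 1692.8, 2315.9 and 2478.0 RPM in ddm1-C24, against 323.2, 372.1 and 568.6 RPM in WT-C24. In Col it had 36.3, 51.6 and 90.0 RPM in ddm1-Col, against 22.6, 36.4 and 77.3 RPM in WT-Col. The C24 groups were apart. The Col groups overlapped, although ddm1-Col was above WT-Col in all 3 same-numbered pairs (effect 0.46, adjusted p = 0.183), and WT-C24 already exceeded every Col library. The interaction of PR1 was 1.92 ± 0.27 (adjusted p = 0.00107, and 0.166 without the replicate block).

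NPR1, the SA receptor and coactivator, had a small but separate rise with 87.6, 70.8 and 70.0 RPM in ddm1-C24, against 58.2, 49.5 and 49.0 RPM in WT-C24, whereas it had 38.7, 35.2 and 34.8 RPM in ddm1-Col, against 39.8, 36.9 and 36.4 RPM in WT-Col. Its interaction was 0.59 ± 0.11 (adjusted p = 0.00508). NIMIN-2, an NPR1-binding protein, and WRKY54, a transcription factor of the SA response, were higher by 1.63 ± 0.27 (adjusted p = 0.00291) and 1.33 ± 0.24 (adjusted p = 0.00514). None of these 3 genes was called without the replicate block (adjusted p from 0.185 to 0.289). PR2, a glucanase counted with the pathogenesis-related genes, was not called (0.37 ± 0.42, adjusted p = 0.597).

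Genes that modify SA or related signals were called as well. Of 6 SA turnover genes, 3 were higher (MES9, SOT12 and DMR6) and 0 lower, with 3 after averaging and 0 without the replicate block. MES9 is an esterase that acts on methyl salicylate. It was higher by 0.96 ± 0.21 (adjusted p = 0.0133). DMR6, an SA hydroxylase, was higher by 0.88 ± 0.21 (adjusted p = 0.0198), but it missed the threshold in 5 of the 12 fits with 1 library left out, with adjusted p of 0.0574 without WT-Col replicate 1, 0.0565 without WT-Col replicate 3, 0.0542 without WT-C24 replicate 3, 0.0582 without ddm1-Col replicate 1 and 0.061 without ddm1-Col replicate 2. Of 4 genes of the N-hydroxypipecolic acid pathway, a mobile signal of systemic resistance, 1 was higher, the glucosyltransferase UGT76B1, and 0 were lower (1 after averaging, 0 without the replicate block, 2 without WT-Col replicate 3, ddm1-Col replicate 3 or ddm1-C24 replicate 3). It was higher by 1.04 ± 0.25 (adjusted p = 0.022) and missed the threshold without WT-Col replicate 1 (0.0718), WT-Col replicate 2 (0.0642), ddm1-Col replicate 1 (0.0635) or ddm1-Col replicate 2 (0.0693).

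**Figure D2:**
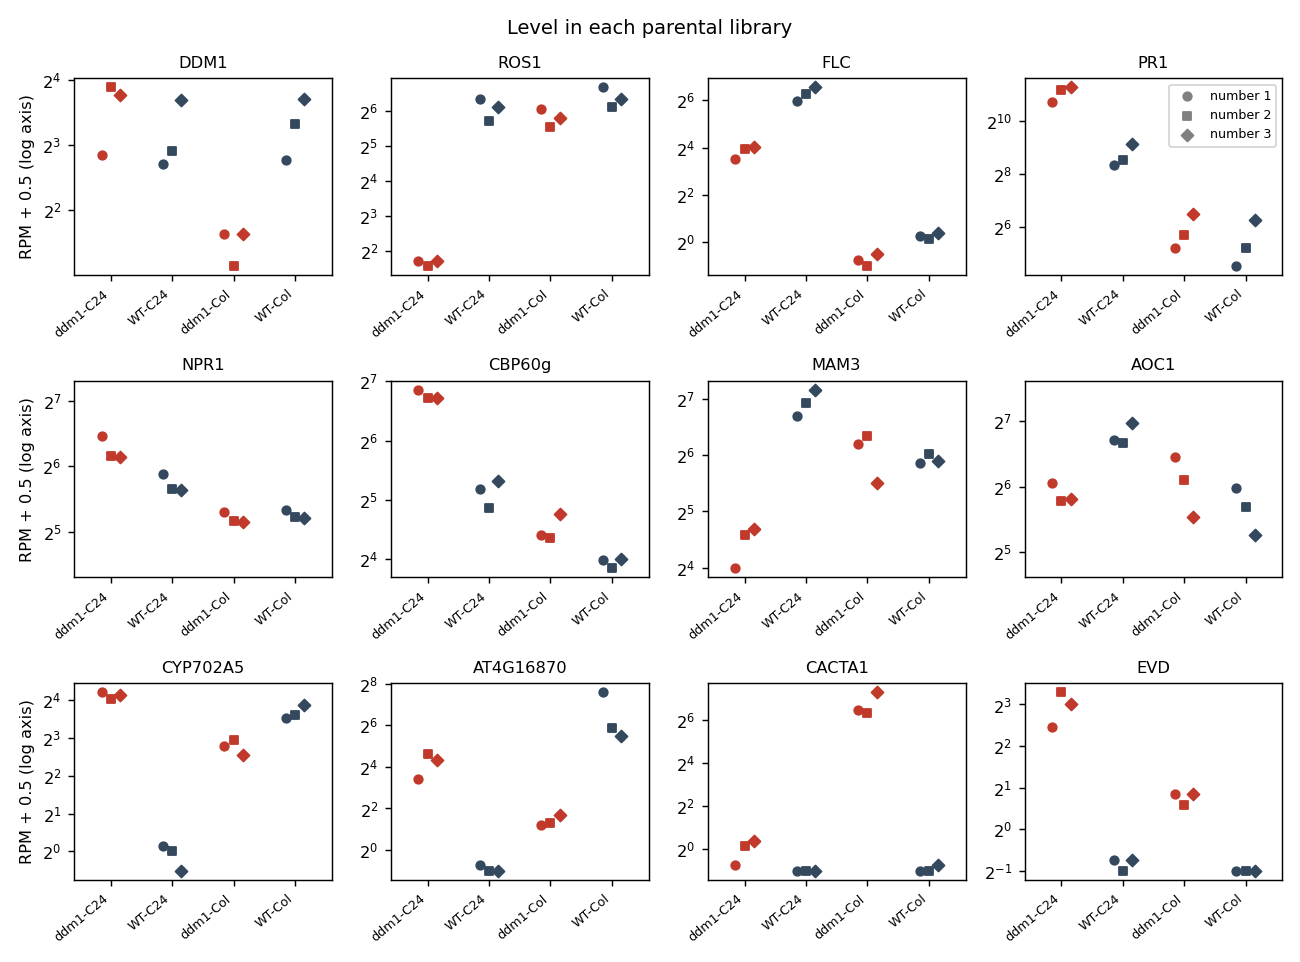
Level of 12 genes in each parental library, as RPM + 0.5 on a log axis, with ddm1 libraries in red, WT libraries in dark blue and marker shapes for the replicate number. PR1 and CBP60g are highest in ddm1-C24, ROS1 is at 2.5 to 2.8 RPM in ddm1-C24 alone, and CACTA1 reaches 79.1 to 155.0 RPM in ddm1-Col but at most 0.8 RPM in ddm1-C24.

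Receptor and phytoalexin genes were called in both directions. The tandem array of cysteine-rich receptor-like kinases (CRK) on chromosome 4 had 9 of 20 genes higher and 1 lower (6 and 1 after averaging, 1 and 0 without the replicate block, 5 higher without WT-Col replicate 1 and 2 lower without ddm1-C24 replicate 3). These genes are close copies, so reads may be split between them. CRK20 had 7.4, 5.8 and 5.0 RPM in ddm1-C24, against 1.2, 1.8 and 1.0 RPM in WT-C24, and at most 0.7 RPM in ddm1-Col and 0.6 RPM in WT-Col. Its C24 groups did not overlap, and the interaction was 1.82 ± 0.31 (adjusted p = 0.00376). CRK23 (1.77 ± 0.27, adjusted p = 0.00158), CRK18 (0.86 ± 0.15, adjusted p = 0.00387) and CRK19 (0.67 ± 0.12, adjusted p = 0.00375) were higher too, although without the replicate block only CRK20 of these 4 was called. The lower gene was CRK21 (-1.89 ± 0.35, adjusted p = 0.00575, and 0.372 without the replicate block). The 8 tested genes of the SNC1 and RPP immune receptor cluster had 0 calls in either direction in limma and interactions of -0.19 to 0.49.

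Camalexin is the indole phytoalexin of Arabidopsis. Of 8 camalexin genes 2 were higher (CYP71A13 and CYP79B2) and 1 lower (CYP79B3), which stayed 2 and 1 after averaging and became 1 and 0 without the replicate block. CYP71A13, which makes indole-3-acetonitrile, had 107.9, 92.4 and 91.7 RPM in ddm1-C24, against 23.8, 24.1 and 25.2 RPM in WT-C24, and 4.4, 4.4 and 6.9 RPM in ddm1-Col, against 3.7, 3.3 and 3.8 RPM in WT-Col. Both pairs of groups were apart, and the effect was larger in C24 by 1.51 ± 0.20 (adjusted p = 0.00068). CYP79B2 and CYP79B3 both convert tryptophan to indole-3-acetaldoxime, yet CYP79B2 was higher by 0.87 ± 0.21 (adjusted p = 0.0217) and CYP79B3 lower (-0.77 ± 0.18, adjusted p = 0.0186). CYP79B2 lost its call without WT-Col replicate 1 (0.0699), WT-Col replicate 2 (0.0582), WT-C24 replicate 1 (0.0592), ddm1-Col replicate 2 (0.0753) or ddm1-Col replicate 3 (0.0534). CYP79B3 lost it without WT-Col replicate 2 (0.0613), WT-Col replicate 3 (0.0532), WT-C24 replicate 3 (0.0526), ddm1-Col replicate 1 (0.0628) or ddm1-Col replicate 2 (0.0651). Without WT-Col replicate 3, 5 camalexin genes were higher. Neither CYP79B gene was called without the replicate block (0.391 and 0.452). Of 18 genes of protein folding in the endoplasmic reticulum 2 were higher and 0 lower (1 after averaging, 0 without the replicate block). Over all tested genes 7.2% were higher, and 5.48% after averaging, so these counts are not read as a result about the group. The transcription factor of the unfolded protein response bZIP60 was higher by 0.70 ± 0.11 (adjusted p = 0.00269). The calreticulin CRT3 was near the threshold (0.67 ± 0.19, adjusted p = 0.0459) and kept its call without ddm1-Col replicate 3 or ddm1-C24 replicate 3 but lost it without any other single library (0.0669 to 0.13), after averaging (0.109) and without the replicate block (0.548). bZIP60 also missed the threshold without the replicate block (0.285).

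Among genes of aliphatic glucosinolates, 13 of 14 fell in C24 and 1 fell in Col, beside 10.9% and 3.0% of all tested genes. Without the replicate block 8 and 0 of the glucosinolate genes fell. These sulphur compounds, made from methionine, deter herbivores. Of 14 tested genes 0 were higher and 9 lower, all 14 had a negative interaction (-2.59 to -0.21), and the median effect was -0.98 in C24 and -0.12 in Col. The count was 8 with replicates 2 and 3 averaged and 1 without the replicate block. MAM3, a chain-elongating methylthioalkylmalate synthase, had 15.4, 23.4 and 25.4 RPM in ddm1-C24, against 103.0, 121.2 and 142.3 RPM in WT-C24, and 72.6, 80.4 and 44.7 RPM in ddm1-Col, against 57.4, 64.7 and 58.8 RPM in WT-Col. The C24 groups were apart while the Col groups overlapped, and the interaction was -2.59 ± 0.31 (adjusted p = 0.000275, and 0.000727 without the replicate block). The transcription factors MYB76 (-1.67 ± 0.25, adjusted p = 0.00139) and MYB29 (-0.95 ± 0.17, adjusted p = 0.00407) were lower as well. AOP2, a side-chain modifying enzyme annotated as a transcribed pseudogene in the Col reference, had 241.9, 296.2 and 313.2 RPM in ddm1-C24, against 676.2, 867.5 and 777.4 RPM in WT-C24, but 13.3, 25.2 and 18.8 RPM in ddm1-Col, against 19.1, 32.8 and 27.0 RPM in WT-Col. It was lower by an interaction of -0.98 ± 0.17 (adjusted p = 0.00382). Of the named genes in this group MYB76 (0.0574), MYB29 (0.706) and AOP2 (0.251) missed the threshold without the replicate block.

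Jasmonate, the wound hormone, is often opposed to SA. Of 19 genes of its synthesis and response 0 were higher and 5 lower (5 after averaging, 1 without the replicate block, 3 without WT-Col replicate 1). The shares over all tested genes were 7.2% higher and 5.27% lower. AOS, the allene oxide synthase that commits fatty acid hydroperoxides to jasmonate, had 43.2, 42.9 and 41.3 RPM in ddm1-C24, against 115.6, 136.5 and 127.4 RPM in WT-C24, and 131.4, 165.9 and 112.3 RPM in ddm1-Col, against 106.7, 122.5 and 91.6 RPM in WT-Col. The C24 groups were far apart. The Col groups overlapped, although ddm1-Col was above WT-Col in all 3 same-numbered pairs (effect 0.34, adjusted p = 0.0779). AOS had an interaction of -1.90 ± 0.15 (adjusted p = 1.65e-05, and 0.000419 without the replicate block). AOC1, the next enzyme of the pathway, was lower by an interaction of -1.29 ± 0.26 (adjusted p = 0.0091). MYC2, the main transcription factor of the response, rose in Col (0.65, adjusted p = 0.0137) and was not called in C24 (-0.34, adjusted p = 0.116), which gave an interaction of -0.99 ± 0.21 (adjusted p = 0.0116). JAZ9, a repressor of MYC2, was lower too (-1.39 ± 0.32, adjusted p = 0.018) but not without WT-Col replicate 1 (0.06) or ddm1-Col replicate 2 (0.0623). AOC1, MYC2 and JAZ9 missed the threshold without the replicate block, with adjusted p of 0.0666, 0.0683 and 0.098. The fifth lower gene was the defensin PDF1.2 (-2.10 ± 0.53, adjusted p = 0.0286, and 0.789 without the replicate block).

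The seed markers moved in the same direction as these groups. Of 12 tested seed markers 0 were higher and 5 lower (3 after averaging, 1 without the replicate block, and 3 without replicate 1 or 2 of any parental genotype). OLEO1, an oil body protein, had 15.9, 4.5 and 5.1 RPM in ddm1-C24, against 46.2, 30.4 and 12 RPM in WT-C24, and at most 1.3 RPM in ddm1-Col and 0.2 RPM in WT-Col. The C24 groups overlapped in level, since the lowest WT-C24 library lay below the highest ddm1-C24 library. Every same-numbered pair fell, although ddm1-C24 replicates 2 and 3 are not independent. The interaction was -2.66 ± 0.50 (adjusted p = 0.0061, and 0.132 without the replicate block). SESA1, a seed albumin, was lower by an interaction of -2.47 ± 0.53 (adjusted p = 0.0127, and 0.444 without the replicate block). The oleosin OLEO2 was lower too (-2.13 ± 0.35, adjusted p = 0.00264, and 0.0476 without the replicate block). The cruciferin CRU3 (-3.91 ± 1.07, adjusted p = 0.0391) kept its call without WT-Col replicate 3, ddm1-Col replicate 3 or ddm1-C24 replicate 3 but lost it without any other single library (0.063 to 0.12), after averaging (0.0884), without the replicate block (0.43) and with a pseudocount of 0.1 (0.114). EM6, a late embryogenesis protein gene at most 3.5 RPM in any parental library, was just under the threshold (-0.89 ± 0.26, adjusted p = 0.0482) and lost its call after averaging (0.117) and without the replicate block (0.123). The part of residual seed transcripts in the other results was not tested. The 41 nuclear genes of photosynthesis had 0 calls in limma and a median interaction of -0.69, and 14 of them were lower without ddm1-C24 replicate 3. The 18 clock genes (interactions of -2.37 to 2.11), 12 anthocyanin genes and 10 secondary cell wall genes had 0 calls each, apart from 1 higher anthocyanin gene without ddm1-C24 replicate 3. Of the other tissue markers, 1 was called, the root phosphate exporter gene PHO1, which was lower (-0.72 ± 0.16, adjusted p = 0.0133). It lost its call without WT-Col replicate 2 (0.0511) and without the replicate block (0.391).

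**Figure D3:**
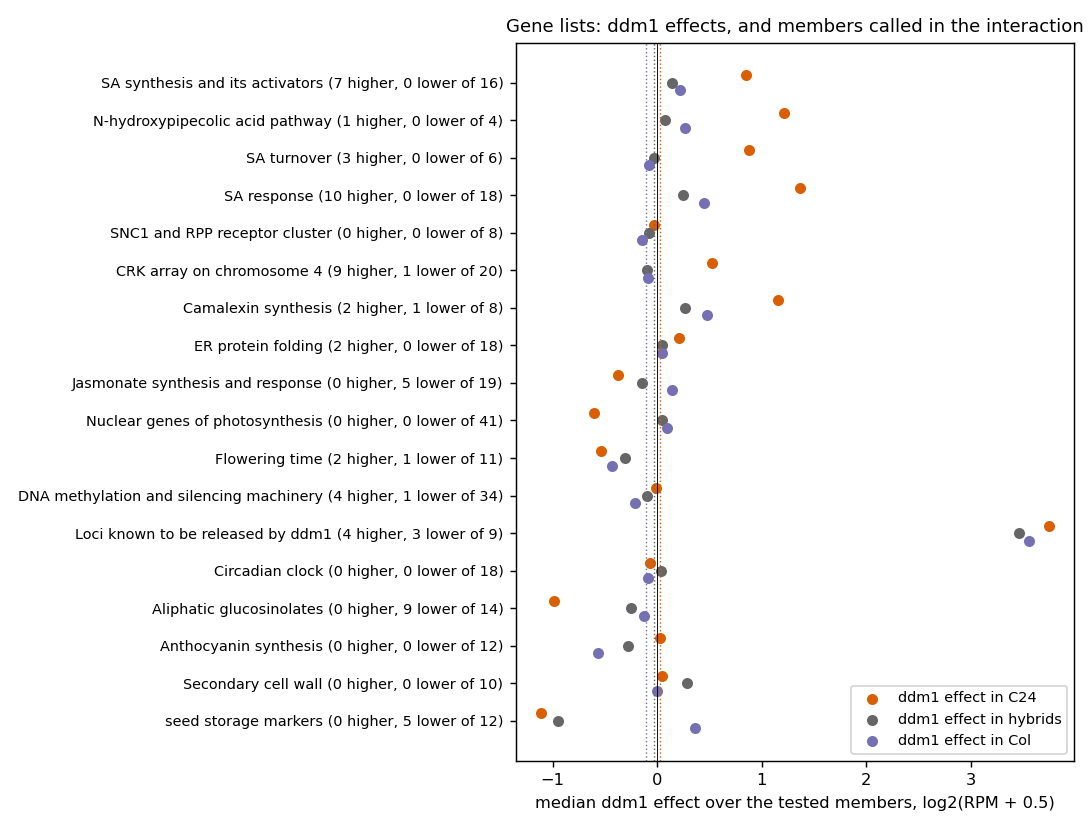
Median ddm1 effect over the tested members of each gene list in C24 (orange), the hybrids (grey) and Col (purple), as differences of log2(RPM + 0.5), with dotted lines at the medians of all tested genes and the number of members called in the interaction beside each name. The 18 SA response genes have medians of 1.37, 0.25 and 0.44, and the 14 aliphatic glucosinolate genes -0.98, -0.25 and -0.12.

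Short sequence words were counted in the promoters of genes that rose or fell in C24 only. They were searched on both strands of the 250 bases before each annotated gene start in the TAIR10.1 reference (RefSeq), which is Col sequence, so C24 promoters may differ. The W-box (TTGACC or TTGACT), the core bound by WRKY factors, was in 39.1% of the 969 protein-coding genes that rose in C24 only, in 20.8% of the 442 that fell in C24 only and in 28.5% of all 20006 tested. The G-box (CACGTG), bound by factors of the bHLH and bZIP families, was in 4.75%, 14.0% and 7.35% of the same sets. The word TGACG, the core bound by TGA factors, was in 22.6%, 23.5% and 19.4%. No test was run on these shares. The 4 promoters shown are those with the most W-boxes among the named list genes that rose in C24 only and the most G-boxes among those that fell in C24 only (ties by locus), with every match to the 3 words in capitals, where neighbouring words can overlap. They read 5′ to 3′ along the gene, and a word on the opposite strand appears as its reverse complement.
NIMIN-2 (chr3:9471040-9471289, minus strand): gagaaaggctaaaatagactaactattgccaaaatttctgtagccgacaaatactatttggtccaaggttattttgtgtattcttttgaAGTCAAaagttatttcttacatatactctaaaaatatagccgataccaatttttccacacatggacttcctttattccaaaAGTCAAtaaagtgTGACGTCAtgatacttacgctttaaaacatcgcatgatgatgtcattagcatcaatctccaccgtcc
CRK18 (chr4:12170081-12170330, minus strand): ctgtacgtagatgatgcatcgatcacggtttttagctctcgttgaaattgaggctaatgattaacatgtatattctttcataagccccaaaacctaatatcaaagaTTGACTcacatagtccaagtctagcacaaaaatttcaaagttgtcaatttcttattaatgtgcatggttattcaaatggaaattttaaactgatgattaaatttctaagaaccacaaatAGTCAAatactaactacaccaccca
OLEO1 (chr4:12900180-12900429, plus strand): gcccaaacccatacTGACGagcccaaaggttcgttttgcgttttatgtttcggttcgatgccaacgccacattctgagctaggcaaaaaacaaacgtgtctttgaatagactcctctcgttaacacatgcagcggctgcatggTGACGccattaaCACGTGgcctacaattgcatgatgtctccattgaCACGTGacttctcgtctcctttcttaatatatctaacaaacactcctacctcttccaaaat
SESA1 (chr4:13607079-13607328, plus strand): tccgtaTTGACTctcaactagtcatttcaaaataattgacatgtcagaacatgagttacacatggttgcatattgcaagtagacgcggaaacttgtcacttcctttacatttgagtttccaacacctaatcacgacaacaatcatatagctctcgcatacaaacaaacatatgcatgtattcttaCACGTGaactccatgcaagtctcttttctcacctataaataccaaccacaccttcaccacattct
NIMIN-2 and CRK18 each held 2 W-boxes, and NIMIN-2 also held 2 overlapping TGACG words. OLEO1 held 2 G-boxes and 2 TGACG words, and SESA1 held 1 G-box and 1 W-box. PR1, EDS1 and CBP60g held 0, 1 and 0 W-boxes in this window. A match is a description of the letters and not evidence of binding.

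**Figure D4:**
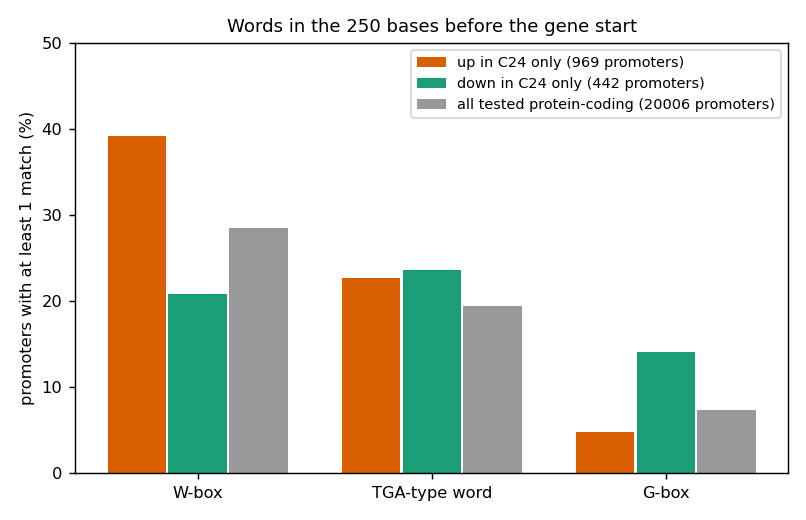
Share of protein-coding genes with at least 1 match to each word in the 250 bases before the gene start, in percent, for genes up in C24 only (orange), genes down in C24 only (green) and all tested protein-coding genes (grey). W-boxes are in 39.1, 20.8 and 28.5% of these sets and G-boxes in 4.75, 14.0 and 7.35%.

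Among genes of the DNA methylation machinery, the demethylase gene ROS1 fell far more in C24. ROS1, a DNA glycosylase that removes methylcytosine and whose own expression depends on promoter methylation, had 2.8, 2.5 and 2.8 RPM in ddm1-C24, against 80.0, 51.9 and 68.0 RPM in WT-C24. It had 65.7, 46.3 and 55.2 RPM in ddm1-Col, against 100.8, 68.2 and 79.4 RPM in WT-Col. It fell in both accessions, with effects of -4.37 (adjusted p = 2.01e-10) in C24 and -0.56 (adjusted p = 0.00297) in Col. The interaction was -3.81 ± 0.14 (adjusted p = 7.88e-08, and 8e-06 without the replicate block). Of 34 tested genes of the machinery 4 were higher (IBM1, DML2, DCL4 and NRPD1) and ROS1 was the 1 lower. The shares over all tested genes were 7.2% higher and 5.27% lower. DML2 and DCL4 were called down in Col and not called in C24, so higher is not a called rise in C24 for them. After averaging 1 was higher and without the replicate block 0 were, and ROS1 was lower in both. Rescaling by median ratios left 2 higher, and DCL4 lost its call there (adjusted p = 0.0894). The count of 4 was 1 without WT-Col replicate 1, WT-Col replicate 2 or ddm1-Col replicate 2, and 2 without WT-Col replicate 3, WT-C24 replicate 1, 2 or 3, ddm1-Col replicate 1 or ddm1-C24 replicate 2. IBM1, a histone H3K9 demethylase, was higher by 0.75 ± 0.16 (adjusted p = 0.0116, and 0.641 without the replicate block). DML2 (0.61 ± 0.14, adjusted p = 0.0204), DCL4 (0.45 ± 0.12, adjusted p = 0.0314) and NRPD1 (0.60 ± 0.18, adjusted p = 0.0489) lost their calls after averaging, with adjusted p of 0.0704, 0.0817 and 0.0714, and none of the 3 was called without the replicate block. DML2 also lost its call without WT-Col replicate 1 or 2 or ddm1-Col replicate 1 or 2 (0.0622 to 0.0676), and DCL4 without any single library other than ddm1-Col replicate 1, ddm1-C24 replicate 1 or ddm1-C24 replicate 3 (0.0567 to 0.101). The maintenance methyltransferase MET1 was not called (0.54 ± 0.26, adjusted p = 0.195).

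The floral repressors FLC and MAF1 fell in both accessions from unequal wild-type levels. Of 11 tested genes 2 were higher (SOC1 and MAF1) and 1 lower (FLC), beside 7.2% and 5.27% of all tested genes. After averaging as well as without the replicate block 1 was higher and 1 lower. FLC, the main repressor of flowering, had 11, 14.9 and 15.8 RPM in ddm1-C24, against 62.5, 76.1 and 92.7 RPM in WT-C24, and 0.1, 0.0 and 0.2 RPM in ddm1-Col, against 0.7, 0.6 and 0.8 RPM in WT-Col. It fell in both without overlap, and the interaction of -1.42 ± 0.22 (adjusted p = 0.00183) depended on the pseudocount, with Col values near 0: with a pseudocount of 0.1 it was -0.33 (adjusted p = 0.623). SOC1, a floral activator that FLC represses, had 73.4, 61.4 and 64.6 RPM in ddm1-C24, against 23.0, 34.3 and 21.1 RPM in WT-C24, and 55.9, 63.8 and 47.6 RPM in ddm1-Col, against 55.1, 62.3 and 43.4 RPM in WT-Col. The C24 groups were apart and the Col groups nearly equal, with an interaction of 1.3 ± 0.20 (adjusted p = 0.00167, and 0.0289 without the replicate block). MAF1, a relative of FLC, fell in both accessions, with effects of -1.94 in C24 and -2.75 in Col. Its interaction of 0.81 ± 0.21 (adjusted p = 0.0316) lost the call after averaging (0.0561), without the replicate block (0.279) and without any single library other than WT-C24 replicate 3, ddm1-Col replicate 3 or ddm1-C24 replicate 3 (0.0575 to 0.101), and it turned to -0.37 with a pseudocount of 0.1. FT, the mobile flowering signal, was not called in the interaction (0.67 ± 0.26, adjusted p = 0.127).

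Among the 9 tested loci known for release in ddm1, 4 were higher (QQS, EVD, FWA and SDC) and 3 lower (CACTA1, VANDAL21-A and VANDAL21-C). All 9 rose in Col and 7 rose in C24. With averaging 4 were higher and 4 lower, and without the replicate block 3 and 2. CACTA1, a DNA transposon, had 0.1, 0.6 and 0.8 RPM in ddm1-C24 and was listed at 0 in all WT-C24 libraries, whereas it had 87.3, 79.1 and 155.0 RPM in ddm1-Col, against 0.0, 0.0 and 0.1 RPM in WT-Col (interaction -6.67 ± 0.34, adjusted p = 5.85e-07). EVD, a copia retrotransposon, leaned the other way, with 5.0, 9.3 and 7.6 RPM in ddm1-C24, against 0.1, 0.0 and 0.1 RPM in WT-C24, and 1.3, 1.0 and 1.3 RPM in ddm1-Col, against 0 in WT-Col (interaction 1.99 ± 0.30, adjusted p = 0.00152). Both loci were above their wild types in both mutants without overlap. For CACTA1 in ddm1-C24 this rests on values under 1 RPM, the lowest a single step of 0.1 RPM. FWA, a homeobox gene silenced by promoter methylation outside the endosperm, had 34.5, 44.5 and 44.9 RPM in ddm1-C24, against 0.4, 0.3 and 0.2 RPM in WT-C24, and 2.0, 2.7 and 8.3 RPM in ddm1-Col, against 0.1, 0.0 and 0.1 RPM in WT-Col (interaction 2.83 ± 0.48, adjusted p = 0.00347). SDC, an F-box gene silenced by tandem repeats, was uneven between replicates, with 428.3, 94.7 and 88.5 RPM in ddm1-C24, against 0.3 RPM in each WT-C24 library, and 22.8, 19.1 and 2.1 RPM in ddm1-Col, against 0.5, 0.4 and 0.1 RPM in WT-Col (interaction 3.89 ± 0.82, adjusted p = 0.0117). Without the replicate block SDC (0.0946) and VANDAL21-C (0.0576) were no longer called.

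Several of the largest interactions came from loci that were near 0 in one wild type and not in the other, or that rose in one accession alone. QQS, an orphan gene of starch metabolism, had 29.6, 46.7 and 53.3 RPM in ddm1-C24, against 0.0, 0.2 and 0.0 RPM in WT-C24, and 13.9, 40.4 and 54.9 RPM in ddm1-Col, against 3.9 to 11.2 RPM in WT-Col. The mutants thus had overlapping levels and the wild types did not, and the interaction was 4.28 ± 0.40 (adjusted p = 5.02e-05). SADHU1-1, a non-coding retroelement, had the same form with 45.4, 175.1 and 148.1 RPM in ddm1-C24, against 0.1 RPM in each WT-C24 library, and 33.7, 117.0 and 125.9 RPM in ddm1-Col, against 23.3, 98.2 and 110.6 RPM in WT-Col (interaction 7.15 ± 0.52, adjusted p = 6.85e-06). AT3G44215, a pseudogene, was the mirror image, with 51.0, 52.0 and 57.6 RPM in ddm1-C24, against 65.8, 46.9 and 50 RPM in WT-C24, but 220.2, 140.2 and 171.4 RPM in ddm1-Col, against 0.1 RPM in each WT-Col library (interaction -8.19 ± 0.20, adjusted p = 2.14e-08).

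Protein-coding genes of the first kind were the uncharacterised AT5G28919 (interaction 4.88 ± 0.36, adjusted p = 8.17e-06) and AT4G07825 (4.49 ± 0.32, adjusted p = 6.72e-06), both at most 0.1 RPM in WT-C24 and expressed in all other groups. AT5G15360 (-4.83 ± 0.34, adjusted p = 5.91e-06) and the DEAD-box helicase gene AT2G07750 (-4.41 ± 0.35, adjusted p = 1.4e-05) were at most 0.2 RPM in WT-Col alone. AT2G05642, an OB-fold protein gene, shows how the scale enters: it had 148.3, 145.9 and 162.6 RPM in ddm1-C24, against 113.1, 83.0 and 95.5 RPM in WT-C24, and 22.8, 22.8 and 21.2 RPM in ddm1-Col, against 0.0, 0.0 and 0.1 RPM in WT-Col. Its interaction was -4.77 ± 0.17 (adjusted p = 6.27e-08) on the log2 scale, and the same double difference in plain RPM had the opposite sign, at 32.8 RPM.

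Genes called in one accession alone included PUM9, an RNA-binding Pumilio protein, with 8.9, 15.3 and 15.7 RPM in ddm1-C24, against 0.0, 0.0 and 0.1 RPM in WT-C24, and at most 0.6 RPM in the Col libraries (interaction 4.05 ± 0.32, adjusted p = 1.41e-05). The aspartyl protease gene AT3G42550 was at 5.7 to 13.3 RPM in ddm1-C24 and at most 0.1 RPM in every other parental genotype (interaction 4.15 ± 0.30, adjusted p = 6.99e-06). In Col the caleosin-related gene AT5G29560 had 70.5, 50.2 and 18.8 RPM in ddm1-Col and was listed at 0 in all 9 other parental libraries (interaction -6.36 ± 0.47, adjusted p = 8.17e-06). The pseudogene AT1G42050, which rose in both accessions, had 582.2, 481.1 and 566.8 RPM in ddm1-Col and at most 0.2 RPM in WT-Col, with 1.8, 2.8 and 4.1 RPM in ddm1-C24 and at most 0.2 RPM in WT-C24 (interaction -7.29 ± 0.30, adjusted p = 1.58e-07). Of the 341 genes that rose in Col only, 258 were under 1 RPM in all 6 C24 libraries and 98 were listed at 0 in all 6. Reads were aligned to the Col reference, so a locus absent from C24, a locus too diverged to align and a silent locus cannot be told apart. Values of transposable element genes and pseudogenes with near-identical copies are uncertain, since their reads may be split between copies.

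The ddm1 effect ran in opposite directions, called in both accessions, for 44 genes, 35 higher and 9 lower. Without the replicate block these counts were 5 and 3. The 35 became 12, 15, 12, 13, 53 and 64 without WT-Col replicate 1, WT-Col replicate 2, ddm1-Col replicates 1, 2 and 3 and ddm1-C24 replicate 3, and the 9 became 4, 4, 15 and 16 without WT-Col replicate 2, ddm1-Col replicate 2, ddm1-Col replicate 3 and ddm1-C24 replicate 2. CYP702A5, a cytochrome P450 gene, had 18.0, 16.0 and 17.1 RPM in ddm1-C24, against 0.6, 0.5 and 0.2 RPM in WT-C24, and 6.4, 7.2 and 5.4 RPM in ddm1-Col, against 11, 11.6 and 14.1 RPM in WT-Col. It rose in C24 and fell in Col without overlap, with an interaction of 5.15 ± 0.26 (adjusted p = 5.02e-07). AT4G16870, annotated as a pseudogene, had 10.2, 23.9 and 19.8 RPM in ddm1-C24, against 0.1, 0.0 and 0.0 RPM in WT-C24, and 1.8, 2.0 and 2.7 RPM in ddm1-Col, against 192.0, 57.6 and 44.8 RPM in WT-Col, the largest interaction among the named genes (9.95 ± 0.67, adjusted p = 4.19e-06). AT1G58602, an NB-LRR disease resistance gene that fell in Col and was not called in C24, had 21.5, 21.4 and 22.6 RPM in ddm1-C24, against 28.8, 17.7 and 20.6 RPM in WT-C24, and 0.8, 14.1 and 31.6 RPM in ddm1-Col, against 155.7, 194.6 and 227.5 RPM in WT-Col. The 3 ddm1-Col libraries differed widely from each other. The interaction was 4.49 ± 1.09 (adjusted p = 0.0237, and 0.0449 after averaging), and the call was lost without the replicate block (0.0743) and without WT-Col replicate 1 (0.0719), WT-Col replicate 2 (0.0587), WT-C24 replicate 2 (0.057), WT-C24 replicate 3 (0.0604) or ddm1-C24 replicate 1 (0.0642).

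In the hybrids, which the interaction did not use, 310 of the 1109 genes that rose in C24 only rose, and 319 of the 341 genes that rose in Col only rose. The ddm1 effect in the hybrids, as the mean of both ddm1 hybrids over the mean of both WT hybrids, was called for 24.3% of all tested genes, up for 13.2% and down for 11.1% (2901 and 2446 genes). When the block was left out 1901 rose and 166 fell, with the block and an absolute log2 difference over 1 as well 1778 rose and 68 fell, and without ddm1-ColxC24 replicate 1 the falling genes numbered 1597. Of the 450 genes that fell in C24 only, 164 fell in the hybrids. With no block in the hybrid fit, the 310 became 154, the 319 became 291 and the 164 became 24. These patterns were chosen by the size of the parental effects, so the counts are descriptions. The sets also differ in effect size and gene class. The 1109 genes, 969 of them protein-coding, had median effects of 0.93 in C24 and 0.13 in the hybrids. The 341 genes, 244 of them pseudogenes, had medians of 3.23 in Col and 2.24 in the hybrids. Larger effects are called more easily, and the part of this in the counts was not tested.

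Levels in the ddm1 hybrids were then set against the mid-parent, the mean RPM of ddm1-C24 and ddm1-Col, as a log2 ratio with 0.5 added to each. The 969 protein-coding genes that rose in C24 only had a median ratio of -0.54 in the ddm1 hybrids and of -0.20 for the WT hybrids over the WT parents. In the ddm1 hybrids 98.8% of them were below the mid-parent, beside 63.4% of all tested protein-coding genes, and in the WT hybrids 92.3% were, beside 73.5%. The 244 pseudogenes that rose in Col only lay at the mid-parent, with a median of 0.01 and 47.5% below it, as did the 305 pseudogenes that rose more in Col (0.0, 49.8% below). The 232 pseudogenes that rose in both and more in C24 lay below it (-0.36, 83.2%). The mid-parent includes values that chose the patterns, so these medians are descriptions. PR1 averaged 178.9 RPM in the ddm1 hybrids beside a mid-parent of 1111 RPM, and CYP71A13 averaged 11.25 RPM beside 51.28 RPM. PUM9 averaged 0.4 RPM beside 6.82 RPM. ROS1 averaged 57.4 RPM in the ddm1 hybrids, within the range of ddm1-Col and above the mid-parent of 29.2 RPM. CACTA1 averaged 51.5 RPM beside 53.8 RPM, AT1G42050 291.2 RPM beside 273.1 RPM and AT2G10250, a pseudogene that rose in Col only, 63.5 RPM beside 63.9 RPM.

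**Figure D5:**
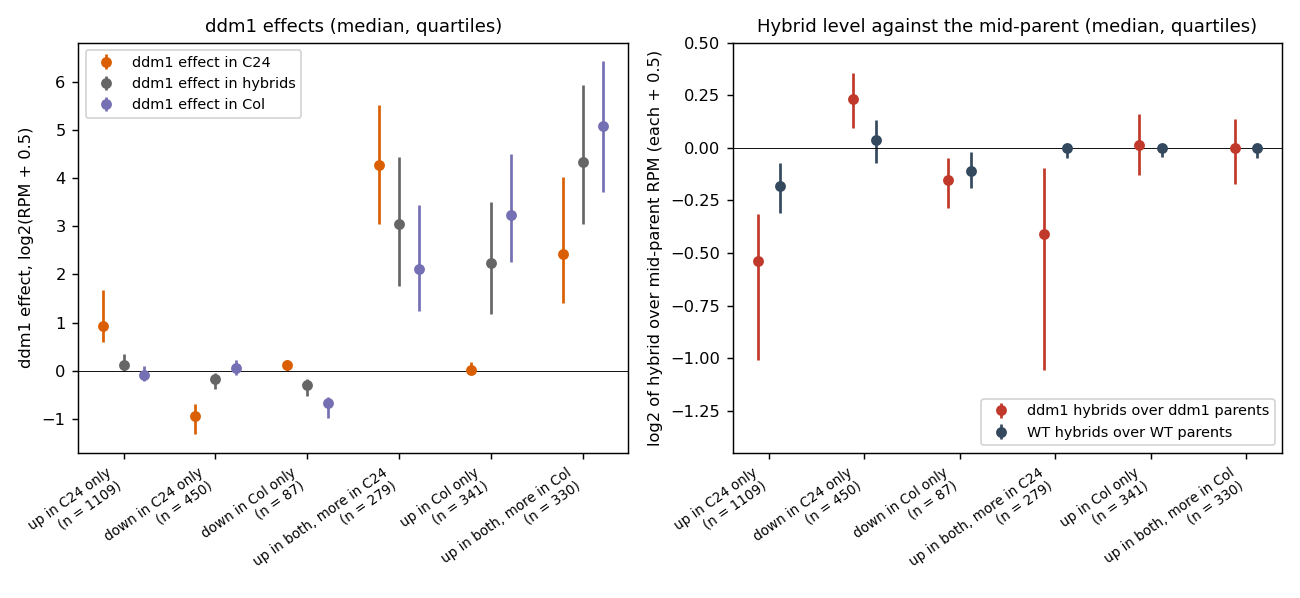
Left, ddm1 effect in C24 (orange), the hybrids (grey) and Col (purple) for 6 patterns of called genes, as medians with quartiles of differences of log2(RPM + 0.5). Right, log2 ratio of the hybrid level over the mid-parent in the ddm1 (red) and WT (dark blue) libraries: the 1109 genes up in C24 only lie below 0 (median -0.54 in ddm1), whereas the 341 genes up in Col only lie at it (0.01).

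Called genes lay on all 5 chromosomes, with 6.42 to 8.03% of the tested genes higher and 4.27 to 6.94% lower on each. Runs of at least 3 neighbouring tested genes called in one direction numbered 38 higher (134 genes) and 46 lower (172 genes). The longest runs, of 8 genes each, held no protein-coding gene, at chr3:14441782-14571625 (lower, median effects of 0.13 in C24 and 4.47 in Col) and chr4:5021329-5086640 (higher, 3.11 and 0.07). The longest run of protein-coding genes held 5 berberine bridge enzyme-like oxidase genes, AT1G26380 to AT1G26420 (chr1:9126737-9143336, TAIR10.1), all of which rose in C24 only (median effects of 1.89 in C24 and 0.34 in Col). A run of 4 genes around GLP6, a germin-like protein gene (chr5:15653125-15670904), also rose in C24 only (2.43 and -0.34). Neighbours in such runs can be close copies, so reads may be shared between them.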

How the data were processed

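Reads were aligned to TAIR10 by the authors with TopHat2 and assigned to genes with HTSeq, and the deposited values are RPM, reads of a gene scaled to a common library total. TopHat, HTSeq and BSMAP are named in the submitters' processing notes, and no HTSeq settings or strand are given in the sources used here, so overlapping and antisense genes are uncertain. All values (100%) are multiples of 0.1, so whole reads were not recovered and no count test was used. The table held 0 columns of other samples. The 4 bisulfite samples were not analysed here.

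RPM were taken as log2(RPM + 0.5) and fitted with limma 3.58.1 (R 4.3.3, trend option, two-sided, Benjamini-Hochberg adjusted p) over 4 genotypes with the replicate number as a block, leaving 6 residual degrees of freedom. The hybrids had a fit of their own. Tables were made with Python 3.11.15 and pandas 2.3.3. The pseudocount shrinks differences of genes with few reads. Replicate numbers come from the labels, which do not say what a number stands for. Deviations from the genotype mean correlated at 0.683 on average over the 18 pairs that share a number (lowest 0.175), so the numbers were taken to pair the libraries. Over the 36 pairs that do not share one the mean was -0.320 (highest 0.7035). That negative mean follows largely from centring each genotype on its own mean and adds little. ddm1-C24 replicates 2 and 3 correlated more with number 3 (0.645 and 0.638) than with number 2 (0.300 and 0.290), and were averaged as number 3. The fit was tested on simulated counts of 22035 genes. With the block it recovered 77% of 100 genes changed by 1 and 100% of 100 changed by 2 (log2), with 6 false calls. Without it the shares were 2% and 54%, with 0 false calls. The simulation used 15 M reads, a dispersion of 0.01 and a replicate effect shared by all genotypes. The gain from the block was thus built in, and these rates need not hold for the real libraries.

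The members and gene lists were chosen with earlier results of these data known. Named genes were DDM1, the called genes with all 3 same-numbered double differences on one side and at least 5 RPM in a genotype mean that had the largest changes (8 higher and 8 lower protein-coding, 4 and 4 others), the 4 lowest p among opposite effects, and up to 4 called members a list. Members outside this rule (PR2, PBS3, ICS1, SARD1, FWA, SDC, VANDAL21-C, NRPD1, MET1, FT, NIMIN-3, CRK21, PDF1.2, EM6, GLP6, AT1G26380 to AT1G26420, ERS1 and AT2G38710) were added after their values were seen. Locus names and positions are from RefSeq TAIR10.1, where 28331 loci were found.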

Additional observations from a re-analysis of the deposited data

Results flagged for a closer look

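By the interaction test itself, 1587 genes had a more positive ddm1 effect in C24 than in Col and 1162 had a more negative one.

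The DDM1 transcript was flagged because its effect differed between the accessions by 2.2: it fell in ddm1-Col and not in ddm1-C24. Whether the ddm1 alleles account for this was not tested.

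Among genes whose effects were called in opposite directions, the lowest p-values belonged to CYP702A5 (interaction 5.15), the beta-galactosidase related gene AT5G26622 (4.39) and the pseudogenes AT4G16870 (9.95) and AT4G08110 (5.96). AT5G26622 had 14.3, 14.5 and 14.0 RPM in ddm1-C24, against 0.6, 0.4 and 0.5 RPM in WT-C24, and 12.7, 12.3 and 15.9 RPM in ddm1-Col, against 21.8, 18.2 and 18.4 RPM in WT-Col. AT4G08110 had 16.7, 20.3 and 24 RPM in ddm1-C24, was listed at 0 in WT-C24, and had 15.9, 16.3 and 19.4 RPM in ddm1-Col, against 23.3, 26.2 and 29.3 RPM in WT-Col. In both, the mutants of the accessions had similar levels and the wild types did not.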

How the results depend on the processing

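Of 69 named genes other than DDM1, 57 kept the interaction call in all 12 fits with 1 library left out, 37 without the replicate block, 64 with ddm1-C24 replicates 2 and 3 averaged as number 3, 67 after rescaling by median ratios, 66 with a pseudocount of 0.1 and 69 with a pseudocount of 1. MAF1 turned to -0.37 with a pseudocount of 0.1, and the double difference of AT2G05642 in plain RPM was 32.8. Averaging as number 2 and averaging without the block were added after seeing the data. The read depth behind the RPM is not known here, and the cause of the changes listed next was not tested.

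Without the replicate block the interaction had 492 higher and 610 lower genes, the C24 effect 2003 and 404, the hybrid effect 1901 and 166, and the Col effect 85 lower. The patterns then held 283 (up in C24 only), 50 (down in C24 only), 11 (down in Col only), 5 (opposite, higher) and 3 (opposite, lower) genes. With rescaling and no replicate block the counts were 477 and 637 (interaction), 2096 and 340 (C24), 69 lower (Col) and 169 lower (hybrids), with patterns of 266, 47, 10, 4 and 4 in the same order. Averaging without the replicate block gave 413 and 554, 1757 and 200 (C24), 65 lower (Col), patterns of 241, 26, 7, 4 and 3, 160 genes up in both and more in C24 and 192 up in both and more in Col, and a DDM1 interaction of 2.04 (adjusted p = 0.0923).

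With all 24 libraries in one fit the interaction had 2860 and 1790 genes, the Col effect 1557 lower, and the patterns 1904, 874, 221, 94 and 20. With an absolute log2 difference over 1 in addition, the interaction had 916 higher genes, C24 2010 and 414, the hybrids 1778 and 68, Col 86 lower, and the patterns 521, 177, 19, 4 and 5. Averaging as number 2 gave 2471 higher genes, 1799 up in C24 only, 134 down in Col only and 61 opposite and higher. A filter of 5 RPM gave 1211 higher in Col, 1919 higher in the hybrids, 179 up in both and more in C24, 175 up in Col only and 3 opposite and lower. Rescaling alone gave 303 lower in Col, 51 down in Col only and 20 opposite and higher, and averaging as number 3 gave 1086 lower in Col and 15 opposite and lower.

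With 1 library left out, the interaction ranged over 894 to 2442 higher and 814 to 1427 lower genes, C24 over 2954 to 4245 and 1642 to 2209, Col over 1756 to 1950 and 237 to 1038, and the hybrids over 2582 to 3102 and 1597 to 3085. The Col falls were 662 with all libraries and 237, 250 and 367 without WT-Col replicates 1, 2 and 3, 240 and 245 without ddm1-Col replicates 1 and 2, and 1038 without ddm1-C24 replicate 2. The patterns ranged over 625 to 1790 (up in C24 only), 200 to 671 (down in C24 only), 35 to 132 (down in Col only), 12 to 64 (opposite, higher) and 4 to 16 (opposite, lower).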

Other observations

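A stretch of chromosome 2 held 14 of the 341 genes that rose in Col only. The Col reference carries there a large insertion of mitochondrial DNA, and its genes are near-identical to genes of the mitochondrial genome. Between AT2G07773 and AT2G07795 (chr2:3240494-3494382, TAIR10.1), 36 genes were tested, 14 were lower in the interaction, all of which rose in Col only, and 0 were higher. The stretch was picked after the values were seen. Over all tested genes 5.27% were lower and 7.2% higher, and of the pseudogenes 30.7% were lower. The 14 lower genes summed to 19.3, 2.6 and 3.0 RPM in ddm1-C24, against 18.4, 2.4 and 2.1 RPM in WT-C24, and to 83.6, 75.9 and 73.4 RPM in ddm1-Col, against 12.2, 1.7 and 1.7 RPM in WT-Col. The ddm1-Col libraries were alone in exceeding 20 RPM, a description only, since the 14 genes were chosen by this difference.

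The 22 genes of the stretch that were not called summed to 198.6, 27.2 and 30.6 RPM in ddm1-C24, 201.9, 31.5 and 17.8 RPM in WT-C24, 159.7, 33.8 and 24.3 RPM in ddm1-Col and 157.9, 32.1 and 18.3 RPM in WT-Col. They were thus high in the libraries numbered 1 of every genotype. All 14 lower genes also rose in the ddm1 hybrids (median 1.33, beside 2.24 in Col and 0.11 in C24). 13 of them kept the call with ddm1-C24 replicates 2 and 3 averaged, and 6 without the replicate block.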
